A study of Arabidopsis thaliana with 16 samples.

Results

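Protein-coding genes beside the centromeres are the genes whose locus midpoint lies within 1.5 Mb of the centre of a centromere on 1 of the 5 Arabidopsis thaliana chromosomes. The centres were set at 15.09 Mb on chromosome 1, 3.61 Mb on chromosome 2, 13.8 Mb on chromosome 3, 3.95 Mb on chromosome 4 and 11.7 Mb on chromosome 5, in coordinates of the TAIR10 build. Of 783 protein-coding entries in these windows, 264 had been tested by the authors in both of their comparisons. The selection rule sets aside 8 of them by name, which leaves 256 members out of 19036 protein-coding genes tested in both comparisons. The other 18772 tested protein-coding genes lie outside the windows, those of the organelle genomes included, and serve as the comparison. Apart from the 8 genes set aside by name, the selection used position and test status, and no direction or size of change. The members were chosen with earlier results of these data known.

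The chromatin around plant centromeres is dense in transposons and repeats and is packed as heterochromatin, kept silent by DNA methylation, histone H3 lysine 9 methylation and the remodeller DDM1. Ordinary genes occur between these repeats, and many of them are transcribed. DRM2 is the main enzyme of RNA-directed DNA methylation, which acts mostly on short transposons and on the edges of long ones, while the methyltransferase CMT2 acts on the bodies of long transposons near centromeres. UV-B is sensed in plants by the photoreceptor UVR8, which changes transcription through the factor HY5 and its partners.

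Whole seedlings were grown on half-strength MS agar with sucrose and harvested on day 10. The dd group is the drm1-2 drm2-2 double mutant, which carries T-DNA insertions in both genes in the Columbia-0 background, and it was grown in 60 mE of white light. The Col-0 UV-B group is wild-type Columbia-0 grown in the same white light with 1.5 mE of UV-B at 315 nm added from day 1, and the Col-0 white-light group is the same wild type without UV-B. The series has 16 samples, of which 8 are RNA-seq libraries and 8 bisulfite sequencing libraries. Each RNA-seq group had 2 biological replicates, and the dd libraries under UV-B and the bisulfite libraries were not analysed here. The expression values are FPKM, a fragment count scaled by transcript length and library size, with 1 pooled value per group from the authors. No spread between replicates can therefore be given, and the authors' q-values are the sole test across replicates. Both comparisons share the Col-0 white-light libraries.

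As a check of the labels, DRM2 had 1.82 FPKM in dd and 7.09 FPKM in Col-0 in white light, and it passed the test in the authors' deposited table (q = 0.0138). DRM1 had 0.319 FPKM in dd against 0 FPKM in Col-0, a level at which the authors' deposited table gives no test. Markers of photosynthetic tissue summed to 28639 FPKM in dd against 27962 FPKM in Col-0, and 4 of 5 had the higher value in dd. Under UV-B they summed to 29297 FPKM against 27722 FPKM in white light. Only 2 of the 5, RBCS1A and RCA, had the higher value under UV-B, and the median log2 ratio of the 5 was -0.16. Root markers summed to 56.3 FPKM in dd against 70.6 FPKM in Col-0, and 0 of 4 tested root markers had the higher value in dd. None of the 4 passed in dd, and 0 had an unadjusted p under 0.05 in the authors' deposited table. Most of both sums came from CASP1, with 38.0 FPKM in dd against 46.8 FPKM in Col-0. Under UV-B the root markers summed to 59.3 FPKM against 69.96 FPKM in white light, and 1 of 5 tested, NRT2.1, was higher in the authors' deposited table. Markers of dividing cells summed to 58.2 FPKM in dd against 59.3 FPKM in Col-0, and to 56.9 FPKM under UV-B against 58.8 FPKM in white light. The 3 seed storage markers and the pollen and anther markers DUO1 and AMS were at or under 0.504 FPKM in every group, and CRC and DUO1 were at 0. The third pollen and anther marker, QRT3, had 0.715 FPKM in dd against 1.26 FPKM in Col-0, and 1.21 FPKM under UV-B against 1.25 FPKM in white light. The part of these tissue markers in the results was not tested, and in whole seedlings fewer cells of a type and less RNA per cell cannot be told apart.

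The members were spread unevenly over the chromosomes. Chromosome 4 held 94 of them, chromosome 2 held 50, chromosome 1 held 43, chromosome 5 held 37 and chromosome 3 held 32. The share of protein-coding entries that could be tested was lower towards the centres. Of the entries within 0.5 Mb of a centre, 14.5% were tested in both comparisons, against 29.8% from 0.5 to 1.0 Mb, 45.2% from 1.0 to 1.5 Mb and 74.9% beyond 8.0 Mb. Inside the windows 357 of 783 entries (45.6%) were listed at 0 in all 3 groups, against 13.6% of the protein-coding entries elsewhere. The 519 window entries that were not tested in both comparisons included 2 that exceeded 5 FPKM in some group. In dd AT2G11215 reached 62.4 FPKM against 0 FPKM in Col-0, with p = 0.245 in the authors' deposited table, and with UV-B AT3G42628 reached 10.9 FPKM against 0 FPKM in white light, with p = 0.0918 in the authors' deposited table. Neither passed, and neither is a member. AT2G11215 shares its locus range with the member AT2G11225, which had 57.4 FPKM in dd and 53.8 FPKM in Col-0. The split of fragments between these overlapping entries is uncertain. AT3G42628 has a locus of 138 bp.

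Transposons surrounded almost every member. A transposon entry lay within 2 kb of 252 of 256 members (98.4%), against 50.3% of the other genes, and overlapped the locus of 120 members (46.9%), against 14.9% of the others. The median member had 17 transposon entries and 3 protein-coding genes within 10 kb of its locus, where the median of the other genes was 3 transposon entries and 7 protein-coding genes. The median locus length was 3153 bp for members and 2972 bp for the others. The windows held 10922 of all 34973 transposon entries (31.2%) and 2.85% of all protein-coding entries. They also held 52 of the 270 transposons (19.3%) that the authors list as raised in dd and 47 of the 269 (17.5%) listed as raised under UV-B, which in both cases is below the windows' share of all transposon entries.

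**Figure D1:**
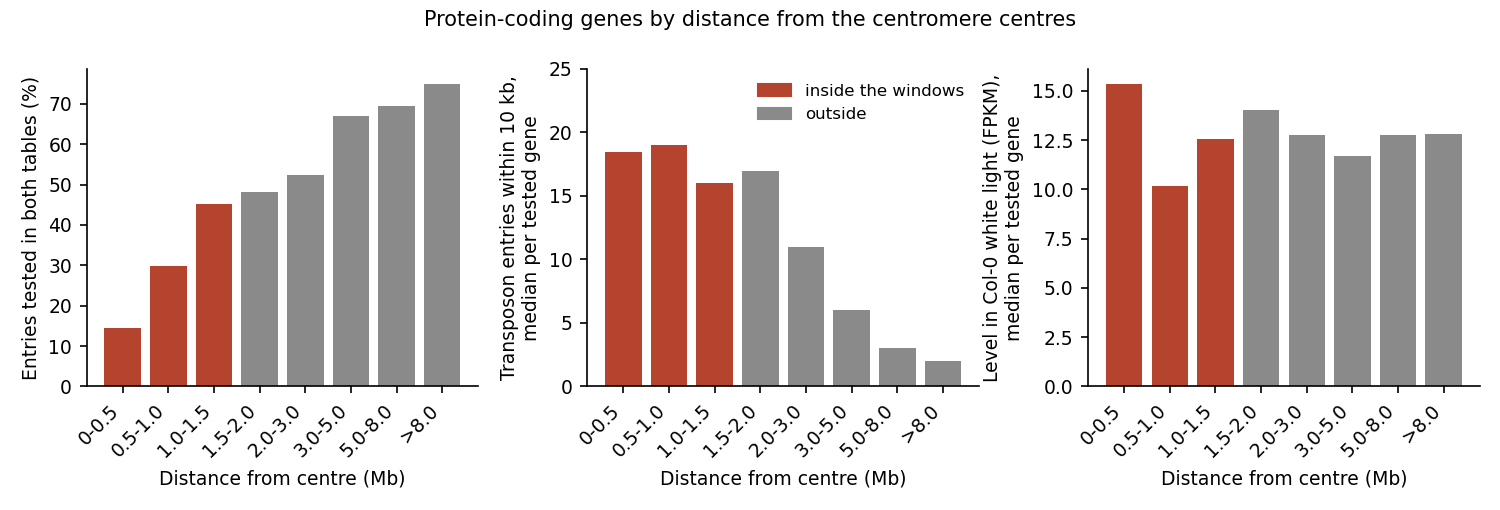
Protein-coding genes grouped by the distance of their locus midpoint from the nearest centromere centre (Mb), with bins inside the windows in red and bins outside in grey. The left panel gives the percentage of entries tested in both comparisons, the middle panel the median number of transposon entries within 10 kb of a tested gene, and the right panel the median level in Col-0 white light (FPKM). Testable entries are rarest within 0.5 Mb (14.5%) and the transposon count is highest there and in the next bin, while the median level of tested genes stays between 10.2 and 15.3 FPKM in all 8 bins.

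Tested genes beside the centromeres had median levels close to those of genes elsewhere. Their median level was 12.6 FPKM in dd, 12.1 FPKM in Col-0 under UV-B and 12.6 FPKM in Col-0 in white light, and the medians of the other genes were 12.6, 12.4 and 12.6 FPKM in the same order of groups. In Col-0 white light the quartiles of the members were 4.74 and 33.7 FPKM, against 5.14 and 30.2 FPKM for the others. The lowest member in Col-0 was at 0.410 FPKM and the highest at 1079.7 FPKM. By distance, the median was 15.3 FPKM within 0.5 Mb, 10.2 FPKM from 0.5 to 1.0 Mb and 12.6 FPKM from 1.0 to 1.5 Mb. By chromosome, it ran from 7.73 FPKM on chromosome 3 to 20.6 FPKM on chromosome 1. Being testable required reads, so these levels describe the members and not every gene of the windows.

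**Figure D2:**
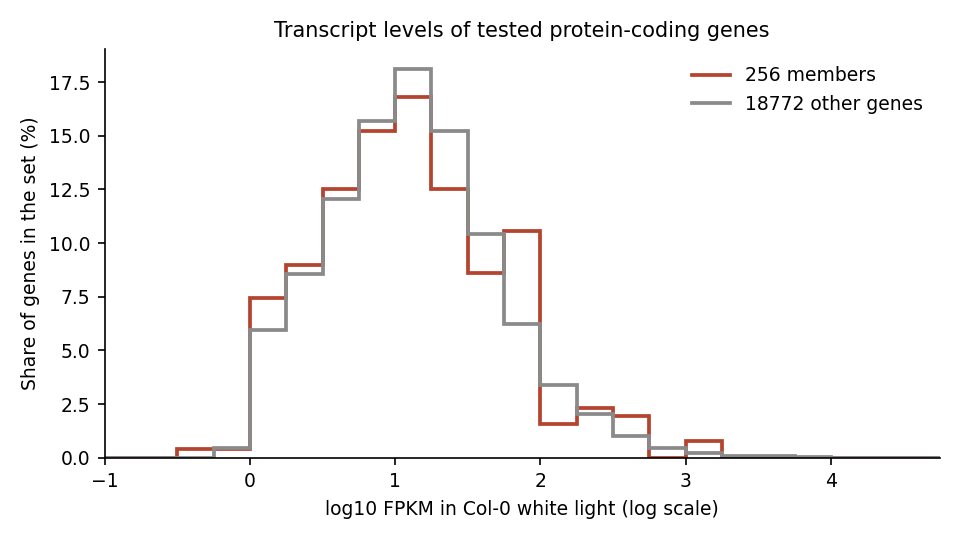
Distribution of transcript levels in Col-0 white light for the 256 members (red) and the 18772 other protein-coding genes (grey). The x axis gives log10 FPKM and the y axis the share of each set per bin of 0.25 on that scale (%). Both sets peak in the bin from 1 to 1.25 on the log10 scale, with 16.8% of members and 18.1% of other genes in that bin.

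The 5 most abundant members in Col-0 white light ranged from 440.2 to 1079.7 FPKM. UBQ10, a polyubiquitin gene widely used as an expression reference, had 1052.8 FPKM in dd, 1092 FPKM in Col-0 under UV-B and 1079.7 FPKM in Col-0 in white light. GAPB, a subunit of the chloroplast glyceraldehyde-3-phosphate dehydrogenase of the Calvin cycle, had 1036 FPKM in dd, 1225 FPKM under UV-B and 1000.3 FPKM in white light. AT2G10940, which has no name in the RefSeq table, had 526 FPKM in dd, 461 FPKM under UV-B and 525 FPKM in white light. RP1, also named RPL3A, encodes a protein of the large cytosolic ribosomal subunit and had 448 FPKM in dd, 452 FPKM under UV-B and 442 FPKM in white light. UBQ11, a second polyubiquitin gene, had 452 FPKM in dd, 499.8 FPKM under UV-B and 440.2 FPKM in white light. None of these 5 passed the test in either of the authors' deposited tables, where the lowest of their q-values was 0.374, for GAPB under UV-B. Polyubiquitin genes consist of near-identical repeats, so the split of fragments between UBQ10 and UBQ11 is uncertain.

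The genes nearest to the centres included several of high level. On chromosome 4 the nearest were AT4G06676, 49.9 kb below the centre, with 9.57 FPKM in dd, 8.24 FPKM under UV-B and 8.74 FPKM in Col-0 white light, and AT4G06744, 122 kb above it, with 13.5, 15.8 and 14.3 FPKM in the same groups. On chromosome 5, RPS1, which encodes plastid ribosomal protein S1, lay 79.9 kb below the centre and had 356 FPKM in dd, 377 FPKM under UV-B and 347 FPKM in Col-0 white light. Above that centre AT5G32440, at 378 kb, had 75.9, 67.9 and 74.1 FPKM. All 4 changed by under 0.25 on the log2 scale in both comparisons.

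On chromosome 2, MCM5, a subunit of the helicase that opens DNA for replication, lay 84.8 kb below the centre with 10.2 FPKM in dd, 7.88 FPKM under UV-B and 8.72 FPKM in Col-0 white light. AT2G09990 lay 172 kb above it with 73.8, 66.0 and 68.3 FPKM in the same groups. On chromosome 3 AT3G32980 lay 271 kb below the centre with 305, 401 and 371 FPKM. These 3 genes did not pass the test in either of the authors' deposited tables. AT3G33528, 283 kb above the chromosome 3 centre, differed in pattern, with 8.51 FPKM in dd, 1.18 FPKM under UV-B and 0.410 FPKM in Col-0 white light. It was the member with the lowest Col-0 level, shared its locus range with 2 transposon entries, and did not pass in the authors' deposited tables (q = 0.677 for dd and q = 0.626 for UV-B). On chromosome 1 the gap around the centre was the widest, with AT1G38131 at 795 kb below it (1.22 FPKM in dd, 0.999 FPKM under UV-B and 1.18 FPKM in Col-0 white light) and SKS6 at 516 kb above it (56.7, 58.6 and 53.7 FPKM).

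The first comparison set dd against Col-0, both in white light, to find genes that differ where the DRM methyltransferases are mutated. Beside the centromeres 2 genes rose and 1 fell in dd, and all 3 lie above the centre of chromosome 4. The rises were in AT4G07995, a gene with no name in the RefSeq table, and in ACS11, an enzyme that makes the precursor of the hormone ethylene. The fall was in UMAMIT20, a member of the UMAMIT family of amino acid transporters. The 2 risers make 0.781% of the 256 members, against 0.186% of the other genes called higher, and the 1 that fell makes 0.391%, against 0.149% of the others called lower, in the authors' deposited table. These shares rest on 2 genes and on 1 gene. By unadjusted p under 0.05 in the authors' deposited table, 14 members differed (5.47%), 5 higher and 9 lower, against 3.45% of the other genes.

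AT4G07995 (chromosome 4, 4838848 to 4843814) had 59.5 FPKM in dd, 0.868 FPKM in Col-0 under UV-B and 1.08 FPKM in Col-0 in white light. It stood at about 1 FPKM in both wild-type groups and far above that in dd alone. The log2 ratio of dd over Col-0 was 5.79, or 4.87 with a pseudocount of 1 FPKM, and the gene passed in the authors' deposited table (q = 0.0138). Its locus range, 891 kb above the centre, is shared with a long non-coding RNA, a transcribed region of unknown function and 2 transposon entries, so the split of fragments among them is uncertain. The long non-coding RNA AT4G05295 had 2.48 FPKM in dd and 0.0451 FPKM in Col-0, and the transcribed region AT4G02875 had 1.92 FPKM in dd and 1.7e-05 FPKM in Col-0. Both were tested and did not pass in the authors' deposited table (q = 0.999 each). The transposon entries of that range, AT4TE20130 and AT4G08020, were listed at 0 in both groups.

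ACS11 (AT4G08040, chromosome 4, 4886962 to 4889224) had 11.5 FPKM in dd, 3.53 FPKM in Col-0 under UV-B and 3.89 FPKM in Col-0 in white light. Its log2 ratio in dd was 1.56 (q = 0.0138 in the authors' deposited table), and the locus overlaps no other entry. A stretch of 43.1 kb separates it from AT4G07995. That stretch holds 51 entries, of which 46 are transposon entries, and 47 of the 51 were listed at 0 in both dd and Col-0. Within it, the non-coding RNA AT4G08035 had 19.6 FPKM in dd and 16.8 FPKM in Col-0 and did not pass in the authors' deposited table (q = 0.999). The gene on the other side of AT4G07995, AT4G07990, had 15.1 FPKM in dd and 16.3 FPKM in Col-0 and did not pass either (q = 0.999 in the authors' deposited table). The 2 genes that rose were thus separated by entries mostly at 0, most of them transposons, and by a non-coding RNA of near-equal level.

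**Figure D3:**
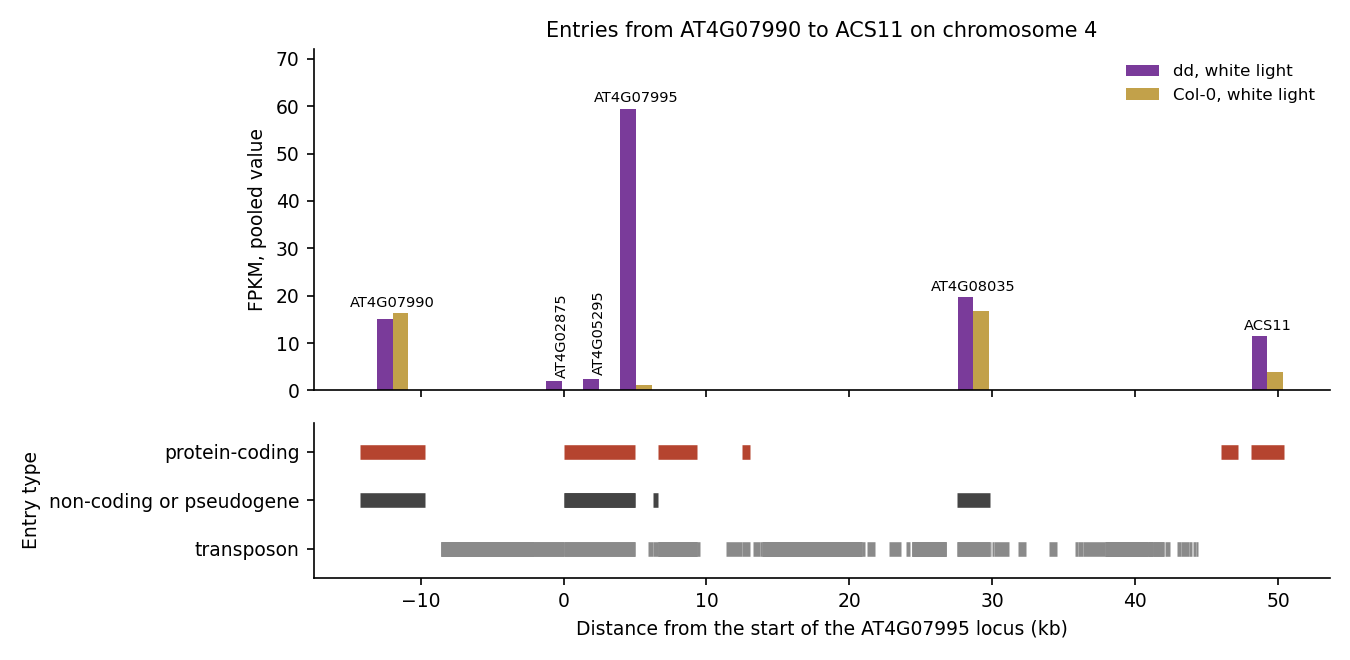
Entries from AT4G07990 to ACS11 on chromosome 4, by distance from the start of the AT4G07995 locus (kb). The upper panel gives the pooled FPKM in dd (purple) and Col-0 white light (gold) for entries that reach 1 FPKM and are no transposons, with entries of 1 shared locus range drawn side by side, and the lower panel shows where protein-coding, non-coding and transposon entries lie. AT4G07995 (59.5 against 1.08 FPKM) and ACS11 (11.5 against 3.89 FPKM) are higher in dd, while AT4G07990 and AT4G08035 have similar levels in both groups.

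UMAMIT20 (AT4G08290, chromosome 4, 5238773 to 5241112) had 12.2 FPKM in dd, 22.7 FPKM in Col-0 under UV-B and 20.1 FPKM in Col-0 in white light. Its log2 ratio in dd was -0.72 (q = 0.036 in the authors' deposited table), so it fell by less than 2-fold. UMAMIT17, the next gene of the same family, had 11.6 FPKM in dd, 15.6 FPKM under UV-B and 12.7 FPKM in white light and did not pass (q = 0.999 for dd in the authors' deposited table). UMAMIT22, the third family member in the windows, is on chromosome 1 and had 4.02 FPKM in dd, 3.51 FPKM under UV-B and 4.76 FPKM in white light, with no call in the authors' deposited tables.

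Over all members, the log2 ratios of dd over Col-0 centred near 0. The members' median log2 ratio was 0.0088, with quartiles at -0.12 and 0.11, beside a median of 0.0014 and quartiles at -0.11 and 0.10 for the other genes. In dd 134 members had the higher value and 122 the lower, and 204 of 256 (79.7%) changed by under 0.25 on the log2 scale, against 80.7% of the others. A difference of 2-fold or more, whatever its q, was found in 9 members (3.52%), AT4G05030 at 0 in dd included, against 1.28% of the others. The spread narrowed with level. The middle 50% of log2 ratios spanned 0.36 among the 68 members under 5 FPKM and 0.086 among the 17 over 100 FPKM. Among the other genes the same spans were 0.43 and 0.12.

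The 9 members with a 2-fold difference all had under 5 FPKM in Col-0, where they make 13.2% of the 68 members at that level, against 4.01% of the 4563 other genes there. ACS11 and AT4G07995 are among them, and the other 7 did not pass in the authors' deposited table. AT1G43040 had 3.18 FPKM in dd and 0.691 FPKM in Col-0, AT2G05810 had 2.04 and 4.48 FPKM, and AT4G05430 had 0.512 and 1.52 FPKM. AT4G05030 was listed at 0 in dd and at 1.35 FPKM in Col-0, with p = 0.0027 and q = 0.29 in the authors' deposited table, and it was the 1 member listed at 0 in any group. Among members with at least 5 FPKM in either group, the lowest ratios belonged to 2 genes 13.4 kb apart on chromosome 4, and UMAMIT20 came next. AT4G08400 had 6.93 FPKM in dd and 13.4 FPKM in Col-0 (log2 ratio -0.95), and AT4G08410 had 7.28 FPKM in dd and 13.2 FPKM in Col-0 (log2 ratio -0.86). Neither passed in the authors' deposited table (q = 0.999 and q = 0.508).

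**Figure D4:**
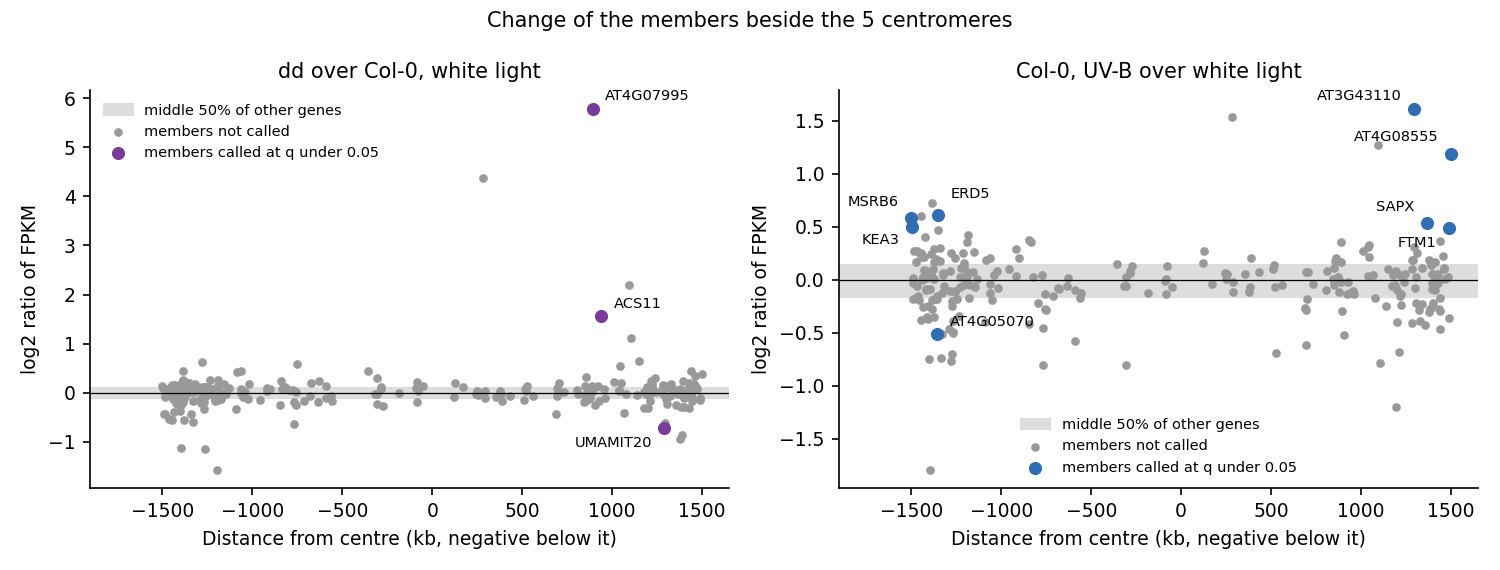
Log2 ratio of pooled FPKM for each member against the distance of its locus midpoint from the centre (kb, negative below the centre), for dd over Col-0 in white light (left) and for UV-B over white light in Col-0 (right). Coloured points passed q 0.05 in the authors' deposited table, grey points did not, and the grey band spans the middle 50% of the other protein-coding genes. The y axes differ in scale, and AT4G05030, listed at 0 in dd, is left out on the left. Called members in dd reach 5.79 and lie above the centre of chromosome 4, while those under UV-B lie between 1292 and 1499.9 kb from a centre.

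The second comparison set Col-0 seedlings given UV-B against those without it. Under UV-B 7 members rose and 1 fell. Those that rose include SAPX and MSRB6, which act against oxidative damage, KEA3, an ion exchanger of the thylakoid membrane, and ERD5, which starts the breakdown of proline. The 7 risers make 2.73% of the members, against 2.14% of the other genes called higher, and the 1 that fell makes 0.391%, against 1.94% of the others called lower, in the authors' deposited table. By unadjusted p under 0.05 in the authors' deposited table, 25 members differed (9.77%), 12 higher and 13 lower, against 12.1% of the other genes. The share of members that rose was near the background, and the share that fell rests on 1 gene.

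AT3G43110 (chromosome 3, 15091509 to 15092521) showed the largest change under UV-B among the members with at least 5 FPKM. It had 23.4 FPKM under UV-B and 7.64 FPKM in white light, a log2 ratio of 1.61 (q = 0.00249 in the authors' deposited table), and 4.99 FPKM in dd. AT4G08555 (chromosome 4, 5448049 to 5448758) had 40.2 FPKM under UV-B and 17.6 FPKM in white light, a log2 ratio of 1.19 (q = 0.00249 in the authors' deposited table), and 23.0 FPKM in dd. Neither gene has a name in the RefSeq table, and these were the 2 called members with more than a 2-fold difference. In all, 6 members (2.34%) differed by 2-fold or more under UV-B, whatever their q, against 2.62% of the other genes. The locus ranges of both also overlap a transposon entry.

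ERD5 (AT3G30775, chromosome 3, 12448636 to 12451556), the mitochondrial proline dehydrogenase, had 88.2 FPKM under UV-B and 57.6 FPKM in white light (log2 ratio 0.61, q = 0.00249 in the authors' deposited table). SAPX (AT4G08390, chromosome 4, 5314871 to 5317963), the stromal ascorbate peroxidase that removes hydrogen peroxide in chloroplasts, had 107 FPKM under UV-B and 74.0 FPKM in white light (log2 ratio 0.53, q = 0.0199 in the authors' deposited table). In dd both were near their Col-0 level and not called, with 59.5 FPKM for ERD5 against 58.1 FPKM in Col-0 and 73.2 FPKM for SAPX against 74.6 FPKM in Col-0.

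MSRB6 and KEA3 are neighbours on chromosome 4, 1.01 kb apart, and both rose. MSRB6 (AT4G04840, 2448529 to 2451651), a methionine sulfoxide reductase that restores oxidised methionine in proteins, had 137 FPKM under UV-B and 91.3 FPKM in white light (log2 ratio 0.58, q = 0.00819 in the authors' deposited table). KEA3 (AT4G04850, 2452664 to 2457767), which exchanges potassium ions for protons across the thylakoid membrane, had 35.9 FPKM under UV-B and 25.4 FPKM in white light (log2 ratio 0.50, q = 0.0421 in the authors' deposited table). MSRB6 had 102 FPKM in dd against 92.1 FPKM in Col-0, and KEA3 had 27.2 FPKM in dd against 25.6 FPKM in Col-0.

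FTM1 (AT1G43800, chromosome 1, 16577521 to 16579722), a stearoyl-acyl carrier protein desaturase also named SAD6, had 94.8 FPKM under UV-B and 67.6 FPKM in white light (log2 ratio 0.49, q = 0.0473 in the authors' deposited table). The member that fell was AT4G05070 (chromosome 4, 2593595 to 2594125), unnamed in the RefSeq table, with 165 FPKM under UV-B and 235 FPKM in white light (log2 ratio -0.51, q = 0.0355 in the authors' deposited table). In dd FTM1 had 62.6 FPKM against 68.2 FPKM in Col-0, and AT4G05070 had 246 FPKM against 237 FPKM in Col-0. No member was called in both comparisons.

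**Figure D5:**
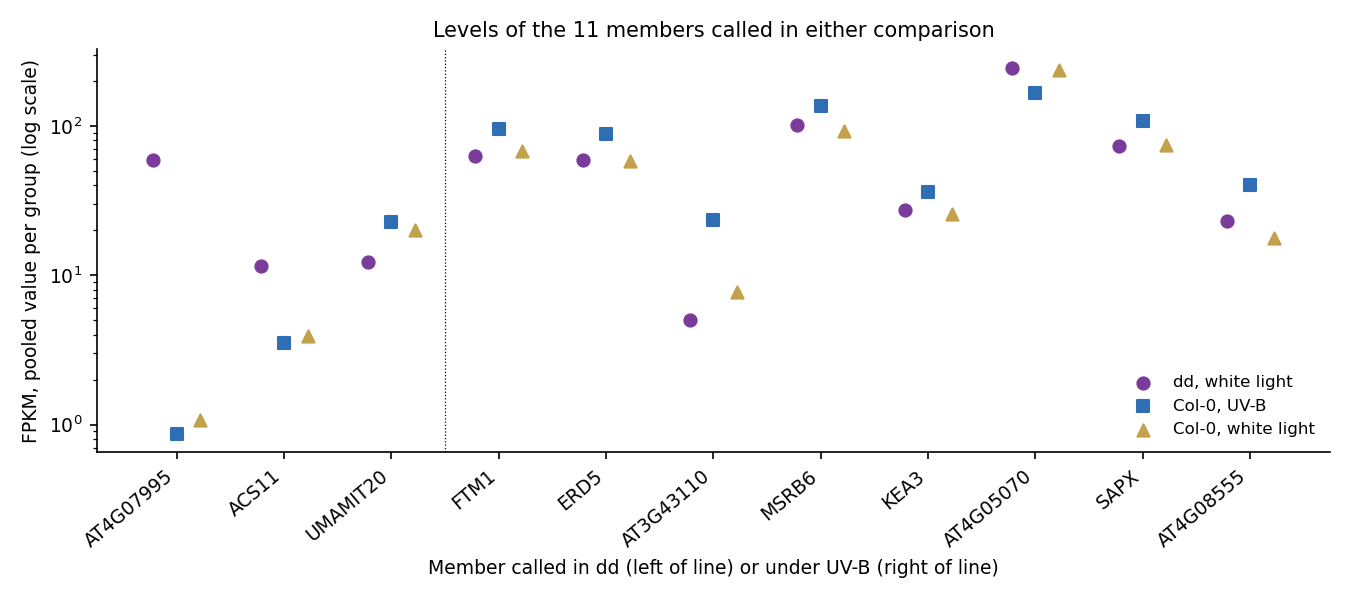
Pooled FPKM (log scale) of the 11 members called in either comparison, in dd (purple circles), Col-0 under UV-B (blue squares) and Col-0 white light (gold triangles). Genes left of the dotted line were called in dd and genes right of it under UV-B. The dd point of AT4G07995 lies at 59.5 FPKM, against 0.868 and 1.08 FPKM in the wild-type groups, while the UV-B genes differ by 1.61 or less on the log2 scale.

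The log2 ratios of UV-B over white light also centred near 0. The median log2 ratio was -0.010, with quartiles at -0.18 and 0.11, beside -0.0028 with quartiles at -0.16 and 0.14 for the other genes. Under UV-B 125 members had the higher value and 131 the lower, and 68.0% changed by under 0.25 on the log2 scale, against 69.2% of the others. Among members that did not pass, GME, an enzyme of ascorbate synthesis, had 247 FPKM under UV-B and 193 FPKM in white light (q = 0.228 in the authors' deposited table), and XTH4, which remodels cell wall xyloglucan, had 210.2 FPKM under UV-B and 281 FPKM in white light (q = 0.106 in the authors' deposited table). The lowest ratios at 5 FPKM or more belonged to AT2G11891 (5.27 FPKM under UV-B and 12.1 FPKM in white light), the receptor-like kinase CRK25 (5.49 and 8.92 FPKM) and AT5G33370 (10.7 and 15.3 FPKM). None of these 3 passed (q = 0.973, q = 0.105 and q = 0.104 in the authors' deposited table), and AT2G11891 has a locus of 168 bp.

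All 8 calls under UV-B were among the 171 members from 1.0 to 1.5 Mb (4.68%), the distance bin with the most members. That share is near the 4.08% of the other protein-coding genes. Of the 85 nearer members 0 were called, and 6 had an unadjusted p under 0.05 in the authors' deposited table. At a background of 4.08% few calls fall on 85 genes, and whether the nearer members differ was not tested. In dd 2 of the 3 calls were among the 57 members from 0.5 to 1.0 Mb, and 1 was further out. From 1.5 to 2.0 Mb, just outside the windows, 12 of 263 tested genes were called under UV-B (4.56%) and 6 in dd (2.28%). By chromosome, chromosome 4 held all 3 dd calls and 5 of the 8 UV-B calls, chromosome 3 held 2 UV-B calls and chromosome 1 held 1. Chromosome 4 also held the most members, 94, of which 3.19% were called in dd and 5.32% under UV-B. The shares of the other protein-coding genes were 0.336% and 4.08%. The UV-B share was thus near the background, and the dd share rests on 3 genes. Chromosomes 2 and 5, with 50 and 37 members, had 0 calls by the authors' test in either comparison. With a background of 0.336%, a count of 0 in dd does not set these chromosomes apart. At an unadjusted p under 0.05 each of these chromosomes had 1 member for dd and 4 for UV-B in the authors' deposited tables.

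The limit of 1.5 Mb cuts through gene clusters. MSRB6, at 1499.9 kb, is the last member inside, and its family neighbour MSRB5 lies 3.57 kb beyond the limit with 199 FPKM under UV-B and 169 FPKM in white light. MSRB4 and MSRB3, further out, had 7.65 and 38.5 FPKM under UV-B and 10.7 and 39.7 FPKM in white light. Within 15 kb inside the limit lie 9 members, 4 of them called under UV-B, namely MSRB6, AT4G08555, KEA3 and FTM1. The share called among the other protein-coding genes was 4.08%. In the 15 kb outside the limit the log2 ratios under UV-B of the 9 tested genes ran from -0.49 for MSRB4 to 0.23 for MSRB5. None of those 9 passed the authors' test, where their lowest q was 0.405, for MSRB4. Whether calls gather at the limit was not tested, and both sets are small.

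Grouped by words in their RefSeq names, 42 members were placed in role groups. Words for enzymes picked 16 metabolic enzymes and missed others, such as the desaturase FTM1. Of the 16, 1 rose in dd, ACS11 (6.25%, against 0.186% of the other genes called higher). Under UV-B 3 of them rose, ERD5, MSRB6 and SAPX (18.8%, against 2.14%), in the authors' deposited tables. These shares rest on 1 gene and on 3 genes, in a group that depends on wording. They stand beside all other genes, because genes outside the windows were not grouped by words. In Col-0 white light the 16 had a median of 35.6 FPKM, against 12.6 FPKM for the other genes. Of the other genes at 20 to 100 FPKM 5.83% were called under UV-B, and of those under 5 FPKM 2.02%. The part of level in these shares was not tested. The median log2 ratio of the 16 was 0.0010 in dd and 0.09 under UV-B. Words for transport picked 8 members and missed the ion exchanger KEA3. Of the 8, UMAMIT20 fell in dd (12.5%, against 0.149% of the other genes called lower), a share that rests on 1 gene. Under UV-B 0 of the 8 were called, and 0 had an unadjusted p under 0.05 in the authors' deposited table. The 9 genes that the word kinase picked had 0 calls, with 1 at an unadjusted p under 0.05 under UV-B, CRK25, and 0 in dd, in the authors' deposited tables. Of the other protein-coding genes 0.336% were called in dd and 4.08% under UV-B. Counts of 0 in groups of 8 and 9 genes therefore do not set them apart. The kinase group holds a tandem of mitogen-activated protein kinase kinase kinases on chromosome 4. MEKK3 had 17.7 FPKM in dd, 15.2 FPKM under UV-B and 18.4 FPKM in Col-0 white light, MAPKKK9 had 3.04, 2.58 and 3.19 FPKM, and MEKK1, which acts in defence signalling, had 13.4, 13.8 and 11.9 FPKM in the same groups. The group also includes AT2G05830 (48.2, 54.2 and 51.1 FPKM), whose synonyms name a methylthioribose kinase and not a protein kinase.

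None of the genes in the smaller groups was called in the authors' deposited tables. With 0.336% of the other protein-coding genes called in dd and 4.08% under UV-B, that does not set such small groups apart. Among regulators of transcription, KNAT1, a homeobox gene of the shoot meristem, had 4.09 FPKM in dd, 3.83 FPKM under UV-B and 5.09 FPKM in Col-0 white light. GTA2, a transcription elongation factor of the SPT5 type, had 19.7, 20.2 and 18.8 FPKM. The F-box gene FBS3 had 5.60 FPKM in dd, 7.19 FPKM under UV-B and 8.27 FPKM in Col-0 white light, and the F-box gene VFB3 had 2.50, 2.43 and 2.44 FPKM. FBS3 was the 1 gene of these groups with an unadjusted p under 0.05, in dd (p = 0.0345, q = 0.999 in the authors' deposited table). The words picked 3 regulators of transcription and missed others, such as the transcription factor BZIP60. That gene had 50.3 FPKM under UV-B and 40.2 FPKM in white light (p = 0.0453, q = 0.404 in the authors' deposited table).

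Among the members are 3 genes, named here as examples, whose products act on DNA methylation or on chromatin and transcription. CHR38, better known as CLASSY1, recruits RNA polymerase IV for RNA-directed DNA methylation and had 2.42 FPKM in dd, 2.35 FPKM under UV-B and 2.61 FPKM in Col-0 white light. ARP6, a subunit of the complex that places the histone variant H2A.Z, had 16.8 FPKM in dd, 16.0 FPKM under UV-B and 16.4 FPKM in Col-0 white light. ELF8, a subunit of the PAF1 elongation complex, had 10.0 FPKM in dd, 9.65 FPKM under UV-B and 10.9 FPKM in Col-0 white light. None of the 3 passed in the authors' deposited tables. A list of 18 genes that act on this chromatin, wherever they lie, had 0 calls by the authors' test in either comparison. Most are genes of silencing, and the centromeric histone CENH3 is among the 18. Of the other protein-coding genes 0.336% were called in dd and 4.08% under UV-B. The list is too short for a count of 0 to set it apart. By unadjusted p under 0.05 it held MORC6 in dd (6.34 FPKM against 4.51 FPKM in Col-0, p = 0.0125) and ATXR6 under UV-B (0.885 FPKM against 1.87 FPKM in white light, p = 0.02745), in the authors' deposited tables. The list includes MET1 (5.32 FPKM in dd against 6.54 FPKM in Col-0), DDM1 (5.50 against 6.07 FPKM) and CMT2 (5.08 against 5.27 FPKM).

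Transposons that the authors list as raised lay near members more often than near other genes, as transposons did in general. Within 5 kb of an entry raised in dd were 28 members (10.9%), against 2.66% of the other genes, and within 5 kb of one raised under UV-B were 19 members (7.42%), against 2.79% of the others. None of these members was called in the same comparison of the authors' deposited tables, where 1 of the 28 and 0 of the 19 had an unadjusted p under 0.05. Among the other genes near such entries, 7 of 500 were called in dd and 27 of 523 under UV-B in the authors' deposited tables, so a count of 0 among so few members does not set them apart. The members' median log2 ratio was 0.03 in dd and -0.09 under UV-B, against -0.0049 and 0.010 for the other genes near raised entries. The higher value was in dd for 17 of 28 members, against 242 of 500 other genes, and under UV-B for 4 of 19 members, against 272 of 523 other genes.

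Of the 22 transposons near members that are listed as raised in dd, 14 stayed under 1 FPKM in dd, and of the 17 listed as raised under UV-B, 11 stayed under 1 FPKM with UV-B. The authors' deposited tables hold a test for 8 of the 22 and for 6 of the 17. AT4TE21575, close to AT4G08230, had 4.47 FPKM in dd against 0.0779 FPKM in Col-0 and 4.97 FPKM under UV-B against 0.0702 FPKM in white light. AT4G08230 itself had 67.6 FPKM in dd against 55.3 FPKM in Col-0, and 54.0 FPKM under UV-B against 54.8 FPKM in white light. AT2TE19915 had 17.6 FPKM in dd against 6.32 FPKM in Col-0 and 14.1 FPKM under UV-B against 6.27 FPKM in white light, and it lies beside AT2G11890, AT2G11891 and AT2G11910. AT2G11890 had 51.8 FPKM in dd against 49.9 FPKM in Col-0, and AT2G11910 had 81.3 FPKM in dd against 83.6 FPKM in Col-0. The most abundant of these entries, AT1TE52670, had 115 FPKM in dd against 75.9 FPKM in Col-0 and shares its locus range with the members GLR3.3, a glutamate receptor-like channel, and PMI1, which acts in chloroplast movement. GLR3.3 had 8.80 FPKM in dd against 8.71 FPKM in Col-0 and PMI1 38.8 FPKM in dd against 35.3 FPKM in Col-0, and fragments of overlapping entries cannot be assigned with certainty. None of these transposon entries passed the test in the authors' deposited tables, where the lowest q-value was 0.252.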

How the data were processed

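RNA from whole seedlings had been sequenced as 8 RNA-seq libraries. Tools named in the submitters' processing notes are BSMAP, Cufflinks, HISAT2 and Trimmomatic, with TAIR10 as build and no versions. The sources used here do not give what each did, nor whether counting used strand. The authors' deposited tables hold FPKM values, 1 pooled value per group. FPKM is not named in the file headers and was inferred from the Cufflinks layout and the values. Differences between groups carry p-values and q-values that the authors deposited. With no read totals in the tables, the depth and precision of a value are unknown, and values as low as 1.7e-05 FPKM are not whole fragments. The tables held 0 columns of per-sample values that were left unused.

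Members were found by position and test status, with the 8 named genes left out. Log2 ratios were computed as dd or UV-B over Col-0 white light with no pseudocount. The fold column of the deposited tables runs the other way round and was not used. The Col-0 white-light values of the 2 tables differ by a factor of 1.01, and the value of each comparison's own table was used, or that of the dd table where 3 groups are given. Locus ranges are 1-based, can span several overlapping entries, and 105 of 256 members overlap no other entry. Gene names are those of RefSeq for assembly TAIR10.1, where all 256 members were found and 106 had a symbol. Role groups used words in its symbols and synonyms. Calls are q under 0.05 in the authors' deposited tables, adjusted over all tested entries. No test of another kind was run, because no value per replicate is given.

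The members and lists were chosen with earlier results of these data known. Genes were named by a rule: members called in either comparison, the 5 highest levels, the nearest to each centre, the 3 highest and 3 lowest ratios per comparison at 5 FPKM or more, the top 2 of each role group, and members within 5 kb of raised transposons. AT1G43040, AT2G05810, AT4G05430, AT4G05030, AT4G07990, GME, UMAMIT22, MEKK1, MAPKKK9, CHR38, BZIP60, and genes that are no members were chosen after their values were seen. The code that finds members, counts calls and takes medians was tested on simulated data with known answers, which tests the code and not the calls. Alternatives were other windows, level minimums, thresholds, adjustment, a pseudocount and centring. Tools were Python 3.11.15, pandas 2.3.3, numpy 2.4.6 and matplotlib 3.10.9.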

Additional observations from a re-analysis of the deposited data

How the results depend on the processing

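Over the alternatives run, the members' median log2 ratio lay between -0.00023 and 0.034 in dd and between -0.023 and 0.020 under UV-B. Most alternatives reuse many of the same genes, so this range does not measure a spread between replicates. The sign of the median changed with a 2.0 Mb window in both comparisons (to -0.00023 in dd and 0.012 under UV-B). Under UV-B it also changed with non-overlapping members (0.010) or a 5 FPKM minimum (0.020). Calls higher in dd were 7 with a 2.0 Mb window, 3 with the 8 genes put back, 1 among members overlapping no other entry and 0 at a q of 0.01, against 2. Calls lower in dd were 2 with a 2.0 Mb window or with the 8 genes put back, and 0 with a 1.0 Mb window, at a q of 0.01 or with 2-fold required, against 1. Calls higher under UV-B were 13 with a 2.0 Mb window, 0 with 1.0 Mb and 8 with the 8 genes put back, against 7. They were 3 among members overlapping no other entry, 4 at a q of 0.01 and 2 with 2-fold required. Calls lower under UV-B were 7 with a 2.0 Mb window and 0 with 1.0 Mb, at a q of 0.01 or with 2-fold required, against 1. A wider window or other members mean other genes, and a stricter rule keeps fewer. The sets held 519 genes with a 2.0 Mb window and 85 with 1.0 Mb, against 256 members. They held 264 with the 8 genes put back and 105 overlapping no other entry. Counts from sets of such different size are not shares, and a higher count is not a higher share called. The smallest q in the authors' deposited dd table is 0.0138, so no entry there can pass 0.01. Adjusting over protein-coding genes alone and a minimum of 1 or 5 FPKM left these 4 counts unchanged. Of the 11 called genes, 4 kept their call with 2-fold required and 4 at a q of 0.01, and 6 overlap no other entry. No paired analysis was possible because the deposited values are pooled per group, and no replicate could be left out. Depth is not given, so what ratios of low genes can show is not known.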
